A study of Danio rerio with 2 samples.

Results

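The genes described here are 9 genes of pteridine synthesis and of xanthophores, the yellow pigment cells of fish: gch2, pts, xdh, aox5, slc2a15a, slc22a7a, uraha, tmem130 and plin6. They were taken by symbol from the 25107 genes of the count files, and each symbol matched 1 gene identifier. The study sorted cells from Tg(mitfa:GFP) zebrafish embryos at 24 hours post fertilisation by their GFP, which the promoter of mitfa drives, and sequenced 1 droplet library of the mitfa:GFP low cells and 1 of the mitfa:GFP high cells. Both libraries carry the same transgene and come from embryos of 1 age, with no treatment named, and the sort sets how many cells of each kind a library holds. With 1 library per sorted fraction there was no replicate, so no test was possible between the fractions. All intervals are exact 95% intervals that cover counting error only.

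Yellow pteridine pigments are made from GTP. GTP cyclohydrolase, the product of gch2, opens the pathway, and pts encodes 6-pyruvoyltetrahydropterin synthase, which acts next. Later steps give tetrahydrobiopterin, the cofactor of phenylalanine hydroxylase, or coloured pteridines. The enzymes of these later steps include sepiapterin reductase and oxidases such as xanthine dehydrogenase. In zebrafish, xanthophores, melanophores and iridophores arise from the neural crest, and xanthophores also store carotenoids in lipid droplets.

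The cell table of the authors placed 2361 cells of the low library and 2374 cells of the high library in 10 clusters, and the medians were 5732 and 6858.5 UMIs (unique molecular identifiers, 1 per captured transcript) per cell. Cluster 3 held 78 low and 324 high cells, with medians of 9142 and 9963.5 UMIs. Of 13 listed xanthophore markers, 12 stood at least 2-fold above the rest of the cells, 4 of them (slc2a15b, pax7a, pax7b, csf1ra) not among the 9 genes, and it is called xanthophore-like. In cluster 6, with 22 low and 197 high cells, 9 of 10 melanophore markers did so, and it is called melanophore-like. Cluster 1, with 380 and 435 cells, was led by alx4a and ednrab. At that fold it had 4 of 6 neural crest markers (sox10, foxd3, crestin, tfap2a). It also had 3 of 5 iridophore markers (ltk, alx4a, gpnmb) and 0 of 10 melanophore markers. The markers thus do not name it a melanophore cluster, and it is called by its number. Clusters 0, 2, 4, 5, 7 and 8 held neural, retinal, mesenchymal, epidermal and muscle markers and serve together as the non-pigment background, with 1862 low and 1418 high cells. The rest of the cells, against which cluster 1 was set, includes cluster 6. Against the non-pigment clusters alone, 6 of 8 melanophore markers with at least 20 UMIs (low) and 9 of 10 (high) were at least 2-fold higher in cluster 1, and 1 was lower in each library. The medians were log2 2.10 and 4.16, and 10.3% and 15.1% of all genes were that much higher. Cluster 9, with 19 low cells and 0 high cells, entered no ratio between clusters, and its cells count where all cells were summed. Levels are given as CPM, the UMIs of a gene per 1000000 UMIs of the same cells. The libraries shared 1 barcode sequence.

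All 9 genes were highest in cluster 3 in both libraries. There, 9 of 9 exceeded the non-pigment clusters by at least 2-fold in the low library, where 15.0% of all genes with at least 20 UMIs did so, and 9 of 9 in the high library, where 16.6% did. Because the clusters were built from the expression of all genes, these figures describe the cluster and test nothing. The smallest of the 18 ratios was still 81.7-fold.

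**Figure D1:**
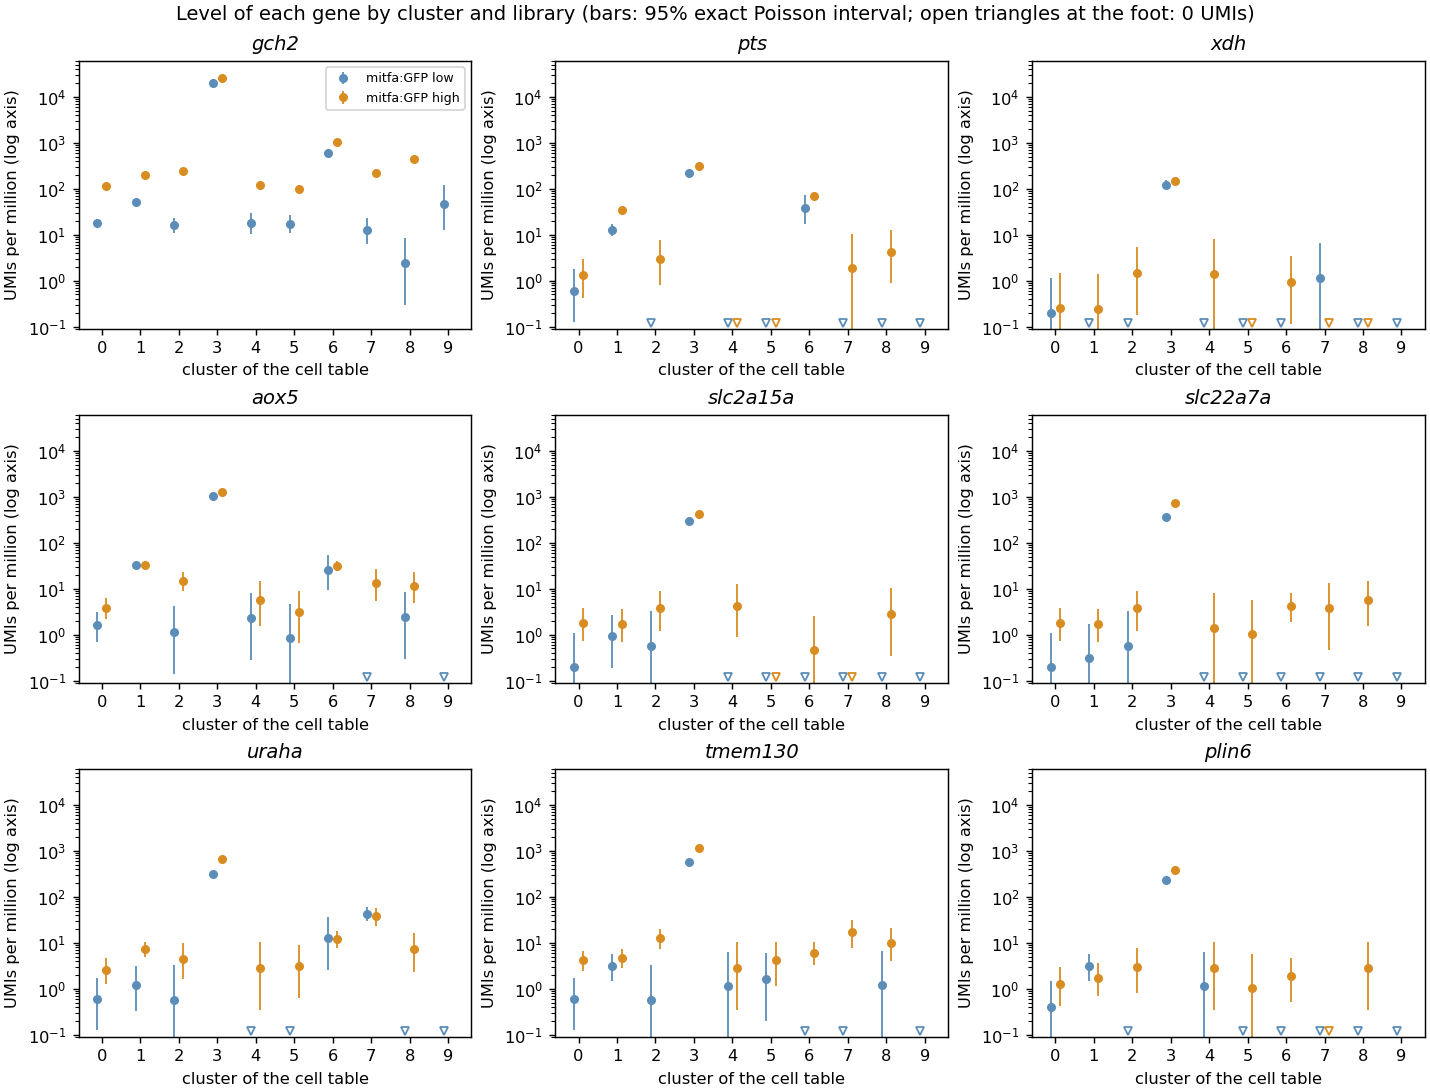
Level of each of the 9 genes (CPM, log axis) in the 10 clusters of the cell table, with the low library in blue, the high library in orange and exact 95% Poisson bars; open triangles mark 0 UMIs. Cluster 3 holds the highest point in every panel, cluster 6 is next for gch2 and pts, and the points of gch2 in the remaining clusters lie higher in the high library than in the low library.

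Among the enzymes of pteridine synthesis, gch2 reached 20303 CPM (19965 to 20645) in cluster 3 of the low library and 26174 CPM (25998 to 26352) in that of the high library. A UMI of gch2 was seen in 78 of 78 and 323 of 324 of these cells. The non-pigment clusters had 16.0 CPM in the low library and 171 CPM in the high library, so the ratio was 1267-fold in the former and 153-fold in the latter. The pts level in cluster 3 was 219 CPM (low) and 314 CPM (high), against 0.285 and 1.61 CPM in the non-pigment clusters, which rest on 3 and 13 UMIs. Both genes were thus far above the background of their own library.

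The oxidases followed the same pattern. The level of xdh, which encodes xanthine dehydrogenase, was 123 CPM in low and 150 CPM in high cluster 3 cells, and elsewhere it was close to absent, with 2 UMIs over 1862 low non-pigment cells and 4 UMIs over 1418 high ones. The aldehyde oxidase gene aox5, a marker of xanthophores in zebrafish, stood at 1026 and 1280 CPM in cluster 3 and at 1.42 and 7.04 CPM in the non-pigment clusters. At its lower level xdh was also seen in fewer cells, and such shares depend on the level of a gene. A UMI of aox5 was seen in 97.4% of the low and 96.0% of the high cluster 3 cells, and of xdh in 56.4% and 61.7%.

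Of the transporters, slc2a15a, a member of the sugar transporter family, was at 295 CPM in low and 415 CPM in high cluster 3 cells. The organic anion transporter gene slc22a7a was at 357 and 723 CPM. The non-pigment clusters held 2 UMIs of each in the low library, and 17 UMIs of slc2a15a and 20 of slc22a7a in the high library. Neither gene had a level above 5.72 CPM in any single non-pigment cluster of either library.

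The remaining genes were uraha, which encodes a hydroxyisourate hydrolase of urate breakdown, tmem130, a transmembrane protein, and plin6, a perilipin that coats lipid droplets in fish. In low and high cluster 3 cells, uraha stood at 318 and 654 CPM, tmem130 at 564 and 1127 CPM and plin6 at 229 and 379 CPM. The lowest ratios to the non-pigment clusters were those of uraha, 81.7-fold for low and 115-fold for high cells. In the low library 37 of the 41 background UMIs, and in the high library 20 of 46, lay in cluster 7, whose cells carried 7 of 7 epidermal markers: uraha was there at 42.8 CPM in the low and 37.5 CPM in the high library, and in 8.53% and 10.5% of the cells. 

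Shares of cells depend on depth, so each cell was also thinned to 2000 UMIs, which left 76 low and 308 high cells in cluster 3. At this depth gch2 was still seen in 96.1% and 99.0% of the cluster 3 cells and aox5 in 78.9% and 86.0%, whereas xdh was seen in 21.1% and 24.0%. At least 3 of the 9 genes were seen together in 81.6% (71.0 to 89.5) of low and 94.2% (90.9 to 96.5) of high cluster 3 cells. In the melanophore-like cluster 6 this held for 0 of 22 low cells (exact upper bound 15.4%, and 13.6% for a limit of 3 cells) and for 1.53% of high cells, in cluster 1 for 0.535% and 1.17%, and in the non-pigment clusters for 0 of 1709 low cells (exact upper bound 0.216%, and 0.176% for a limit of 3 cells) and 0.455% of high cells. The shares outside cluster 3 rose with depth: without thinning, cluster 6 gave 13.6% (low) and 22.3% (high), cluster 1 gave 2.37% and 7.36%, the non-pigment clusters 0 of 1862 cells and 1.20%, and cluster 3 itself 96.2% and 98.1%.

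Without thinning, 10 cells outside cluster 3 showed at least 4 of the 8 genes other than gch2. They were 2 of 2283 low cells, both in cluster 1, and 8 of 2050 high cells, of which 3 lay in cluster 2, 2 in cluster 6 and 1 each in clusters 1, 7 and 8. The cell in cluster 8, whose cells carried 8 of 8 muscle markers, held 261 UMIs of gch2 and 7 of the 8 others, and without it gch2 in that cluster fell from 439 to 66.9 CPM. Across all high non-pigment cells, leaving this cell out gave 139 in place of 171 CPM, an alternative chosen after the data were seen. Whether such cells are doublets was not tested.

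**Figure D2:**
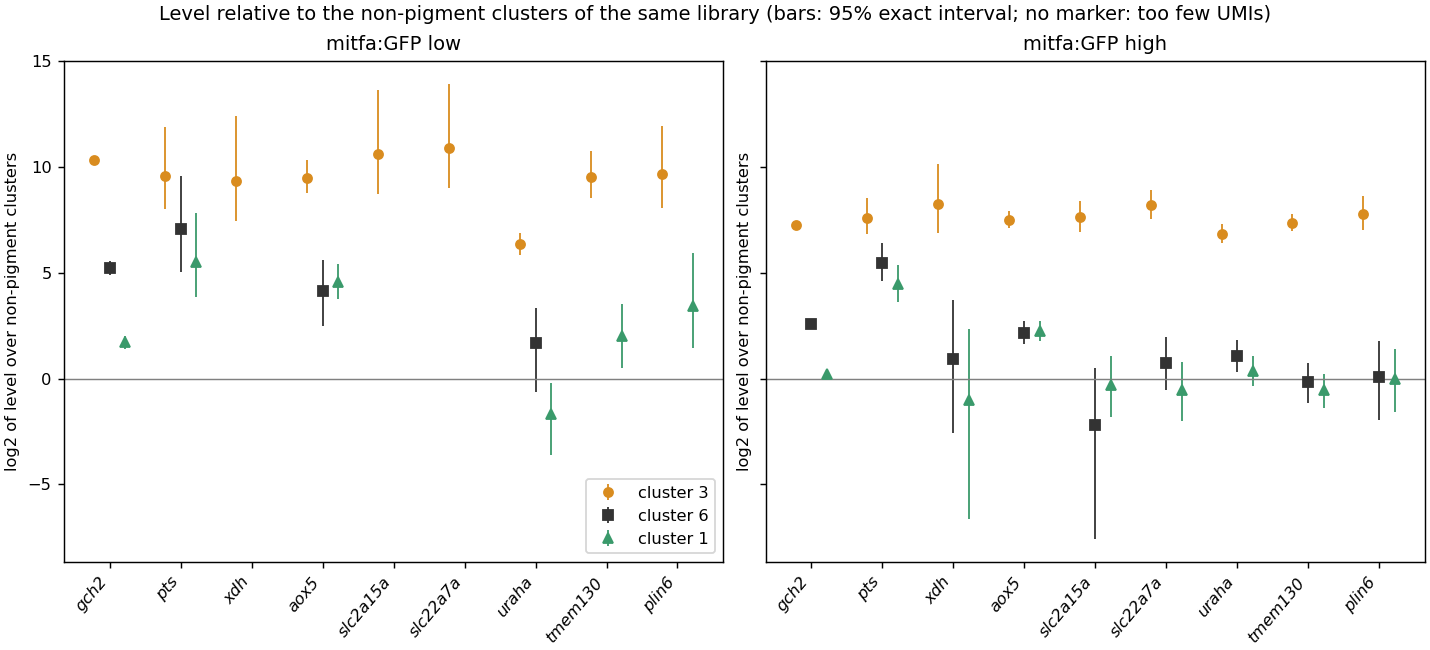
Log2 of the level of each gene in clusters 3, 6 and 1 over its level in the non-pigment clusters of the same library, with exact 95% bars; pairs with too few UMIs have no marker. In both panels cluster 3 lies above a log2 ratio of 6 for all 9 genes, and in the high library the bars of cluster 6 lie wholly above 0 for gch2, pts, aox5 and uraha and those of cluster 1 for gch2, pts and aox5.

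The melanophore-like cluster 6 held gch2 and pts above the background, at levels below those of cluster 3. Here gch2 was at 607 CPM in the low and 1016 CPM in the high library and was seen in 81.8% and 95.9% of the cells, against 7.63% and 41.4% of the non-pigment cells, whose median depths were 4984.5 and 4908.5 UMIs against 10562 and 10960 in cluster 6. After thinning to 2000 UMIs the shares were 45.5% and 73.0% in cluster 6 and 3.51% and 20.8% in the non-pigment clusters. The ratio of levels was 37.9-fold (log2 5.24, 4.91 to 5.57) in the low and 5.95-fold (log2 2.57, 2.47 to 2.67) in the high library.

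For pts, cluster 6 had 37.9 CPM from 9 UMIs in the low library and 69.9 CPM from 151 UMIs in the high library. The latter was 43.6-fold above the non-pigment clusters (log2 5.45, 4.63 to 6.39), and pts was seen in 51.8% of the high cells of cluster 6 against 0.776% of high non-pigment cells. Of aox5 there were 25.3 and 32.0 CPM, and the high value was 4.54-fold above the background (log2 2.18, 1.66 to 2.72). The level of uraha was 12.6 CPM in the low and 12.04 CPM in the high library, the latter 2.12-fold above the background (log2 1.08, 0.33 to 1.81).

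The other 5 genes had few UMIs in cluster 6. In the low library xdh, slc2a15a, slc22a7a, tmem130 and plin6 had 0 UMIs in its 22 cells, where the floor of 3 UMIs corresponds to 12.6 CPM. In the 197 high cells they had 2, 1, 9, 13 and 4 UMIs, and the interval of the log2 ratio to the non-pigment clusters included 0 for each of them. In the low library 3 of the 9 genes had enough UMIs for this comparison, and all 3 (gch2, aox5 and uraha) exceeded the non-pigment clusters by at least 2-fold, beside 17.7% of all genes with enough UMIs. In the high library 6 had enough, and 4 of them (gch2, pts, aox5 and uraha) did, beside 18.6%. The low ratio of pts, from 9 and 3 UMIs, was 133-fold (log2 7.06, 5.06 to 9.58). The low value of uraha rests on 3 UMIs from 1 cell.

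Cluster 3 exceeded cluster 6 by at least 2-fold for 9 of 9 genes in the low library, against 12.8% of all genes, and for 9 of 9 in the high library, against 11.8%. The excess was least for pts, 5.76-fold in the low library (log2 2.53, 1.56 to 3.68) and 4.48-fold in the high library (log2 2.16, 1.92 to 2.42). For gch2 it was 33.4-fold and 25.8-fold. In the high library slc2a15a, with 1331 UMIs in cluster 3 and 1 in cluster 6, gave a log2 ratio of 9.81 (7.33 to 15.11), and tmem130 was 187-fold higher.

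In the high library the make-up of the UMIs set cluster 6 apart from both the xanthophore-like cells and the background, and cluster 1 held still more pts relative to gch2. For each 1000 UMIs of gch2, the high library held 11.98 UMIs of pts (11.2 to 12.7) in cluster 3, 9.40 (4.99 to 16.1) in the non-pigment clusters and 68.9 (58.0 to 81.2) in cluster 6. The low library gave 10.8, 17.8 and 62.5, in the same order, from 148, 3 and 9 UMIs of pts. There the intervals of cluster 6 (28.0 to 122) and of the non-pigment clusters (3.62 to 52.8) overlapped. Cluster 1 held 244 (170 to 344) in the low and 177 (147 to 212) in the high library. In the other direction, slc22a7a fell from 27.6 per 1000 UMIs of gch2 in high cluster 3 cells to 4.1 (1.87 to 7.80) in cluster 6, and tmem130 from 43.1 to 5.93 (3.15 to 10.2). High cluster 1 cells held 8.67 (3.48 to 18.0) of slc22a7a and 23.5 (14.1 to 37.0) of tmem130. The others fell as well, among them aox5 from 48.9 to 31.5 (24.4 to 40.0) and uraha from 25.0 to 11.9 (7.73 to 17.4). Relative to gch2, cluster 6 of the high library thus held more pts and less of every other gene of the set than cluster 3. In the low library cluster 6 also held more pts, and it had 0 UMIs of slc22a7a and tmem130 beside 144 of gch2. The upper limit of 25.9 for each lay above the low cluster 3 value of slc22a7a (17.6) and close to that of tmem130 (27.8, 25.0 to 30.8).

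In the high non-pigment clusters the make-up was close to that of cluster 3. For 7 of the 8 other genes the interval of the UMIs per 1000 UMIs of gch2 included the cluster 3 value. The exception was slc22a7a, at 14.5 (8.81 to 22.4) against 27.6, while uraha stood at 33.3 (24.2 to 44.6) against 25.0. Of the 1383 UMIs of gch2 in these high cells, the 5 cells described above with at least 4 other genes held 261, 61, 50, 48 and 22. The make-up without them was not computed. In the low library uraha stood at 243 (168 to 343) against 15.6, and for each of the other genes the interval included the cluster 3 value. The gch2 level in the non-pigment clusters ranged from 99.6 to 439 CPM in the high library and from 2.37 to 18.2 CPM in the low library, while xanthophore-like cells made up 13.6% of the high and 3.30% of the low cells. The 439 CPM, in cluster 8, fell to 66.9 CPM without 1 cell. Free RNA from lysed cells as the source of the UMIs in the non-pigment clusters was not tested.

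**Figure D3:**
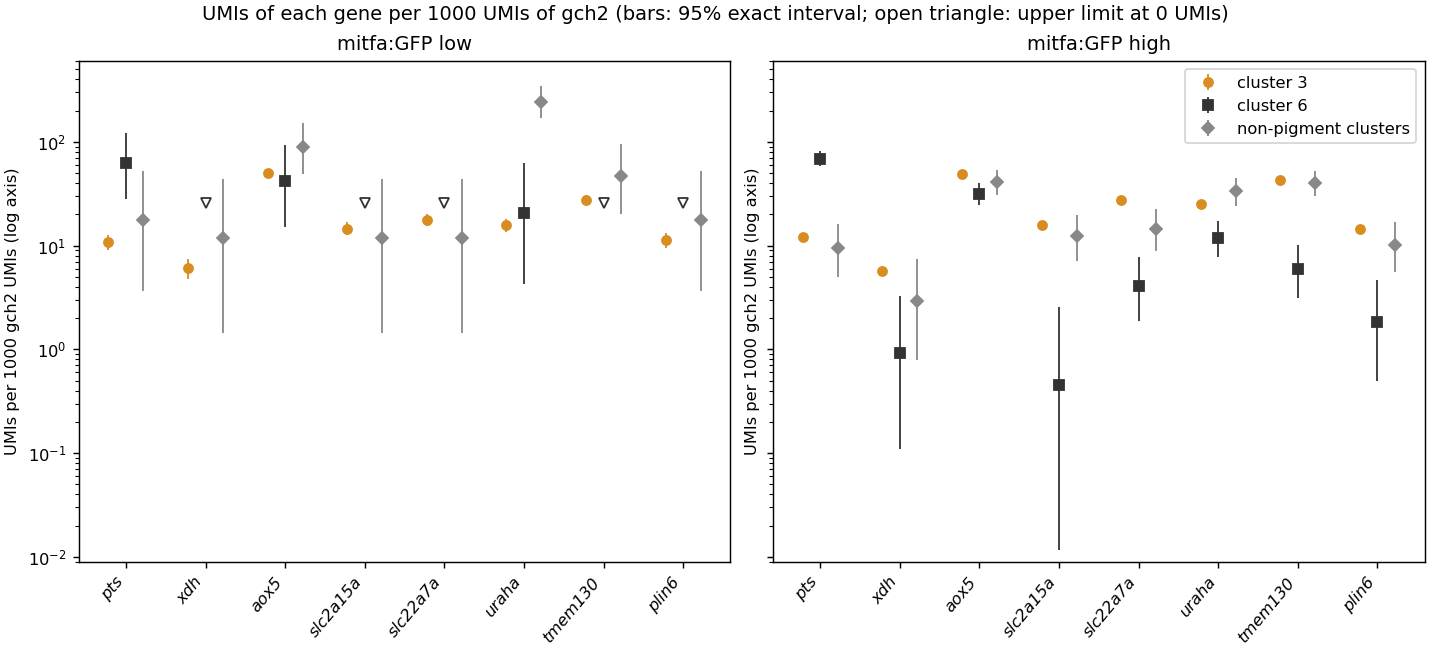
UMIs of each of the other 8 genes per 1000 UMIs of gch2 (log axis) in cluster 3, cluster 6 and the non-pigment clusters, by library, with exact 95% bars; open triangles are upper limits at 0 UMIs. In the high library pts lies at 68.9 in cluster 6 against 11.98 in cluster 3, while every other gene lies below its cluster 3 value in cluster 6.

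In cluster 1, gch2 was at 52.4 CPM in the low library, 3.27-fold above the non-pigment clusters (33.7 CPM and 2.10-fold without the 2 cells described above that showed at least 4 other genes), and at 198 CPM in the high library, where the ratio was 1.16-fold. The pts level was 12.8 and 35.0 CPM, 45.0-fold and 21.8-fold above the non-pigment clusters, and aox5 was at 33.5 and 33.3 CPM, 23.6-fold and 4.74-fold above them. Cluster 1 therefore held pts and aox5 above the background in both libraries. Of the 4 genes with enough UMIs in the low library, 3 (gch2, pts and aox5) passed 2-fold, against 10.3% of all genes, and of 8 in the high library 2 (pts and aox5) did, against 15.1%. In the high library the intervals of xdh, slc2a15a, slc22a7a, uraha, tmem130 and plin6 all included a ratio of 1. The low library had 4 UMIs of uraha in cluster 1, 1.22 CPM against 3.89 CPM in the non-pigment clusters, and this order turned when the median over the single non-pigment clusters was used, since cluster 7 supplies most of that level.

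Within cluster 1 the cells differed in their melanin genes, and pteridine genes differed with them. Cells were divided by the summed UMIs of 10 melanin genes into those with 0, with 1 to 9 and with 10 or more, a range and not a set of cell types, with 251, 101 and 28 cells in the low library and 86, 172 and 177 in the high library. The gch2 level was 13.7, 67.2 and 313 CPM across the 3 classes in the low library and 62.6, 127 and 315 CPM in the high library. The value in the top class of the low library came from 82 UMIs in 9 of 28 cells. Of the 2 low cluster 1 cells that showed at least 4 of the other genes, 1 held 29 of the 61 gch2 UMIs of the middle class and 1 held 33 of the 82 of the top class. Without such cells, an alternative chosen after the data were seen, the low values were 13.7, 35.6 and 196 CPM, and the top class of the high library had 307 CPM. Relative to the non-pigment clusters, the low values were then 0.857-fold, 2.22-fold and 12.2-fold. In the high library the classes with 0 and with 1 to 9 lay below the non-pigment level, at 0.367-fold and 0.744-fold, and the top class was at 1.80-fold.

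The pts level across the same classes was 9.0, 16.5 and 30.5 CPM in the low library, and 7.67, 34.1 and 47.7 CPM in the high library, where the intervals of the lowest (2.81 to 16.7) and the highest class (38.2 to 59.0) lay apart. Of aox5 the middle class had the highest level in the high library, with 19.2, 46.1 and 28.9 CPM. In the low library aox5 stood at 15.6, 64.9 and 68.7 CPM. Median depth was 8049, 8716 and 9366.5 UMIs in the low and 8784, 8385.5 and 9886 UMIs in the high classes. In cluster 3 the gch2 level across the same classes was 15274, 20625 and 30009 CPM in the low library, the last from 3 cells, and 19046, 27655 and 23968 CPM in the high library.

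Within cluster 3 the level of gch2 varied widely between cells. In the low library the 10th percentile was 1198 CPM, the median 19905 CPM and the 90th percentile 39414 CPM, and in the high library these values were 6085, 27285 and 43325 CPM. When the cells were ranked by gch2 and divided into 4 groups of nearly equal size, the other 8 genes were all higher in the top group than in the bottom group of both libraries. The largest differences were those of slc22a7a, 5.70-fold in the high library (193 to 1103 CPM) and 20.8-fold in the low library, where the bottom group held 5 UMIs, and of plin6, 4.11-fold and 18.6-fold, the latter from 3 UMIs. The smallest in the high library were those of aox5, 1.78-fold (log2 0.83, 0.69 to 0.97), and pts, 1.84-fold (log2 0.88, 0.58 to 1.18). Genes outside the set, described below, also rose there: sprb 2.60-fold, slc2a15b 2.50-fold, bco1 2.49-fold and slc2a11b 2.06-fold. The rise was smaller for pcbd1 (1.22-fold) and qdpra (1.04-fold, log2 0.05, -0.10 to 0.20). In the low library pcbd1 rose 1.72-fold (log2 0.78, 0.27 to 1.31) and qdpra 1.59-fold (log2 0.67, 0.30 to 1.04). No share over all genes stands beside the count of the other 8 genes, so it does not set them apart from the rest of the cluster's genes.

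The regulators in the same cells did not move together. The neural crest factor gene sox10 differed between the top and bottom group by a log2 ratio of 0.00 (-0.35 to 0.35) in the low and 0.12 (-0.05 to 0.30) in the high library. The paired-box gene pax7a was higher in the top group, 2.62-fold for low and 1.62-fold for high cells, and pax7b gave log2 ratios of -0.14 (-0.62 to 0.34) and -0.32 (-0.51 to -0.12). The melanophore regulator gene mitfa was lower in the top group of the high library (log2 -0.49, -0.68 to -0.30) and higher in that of the low library (log2 0.64, 0.13 to 1.15). Median depth of the bottom and top groups was 8157 and 9282.5 UMIs in the low and 9412 and 9638 UMIs in the high library.

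**Figure D4:**
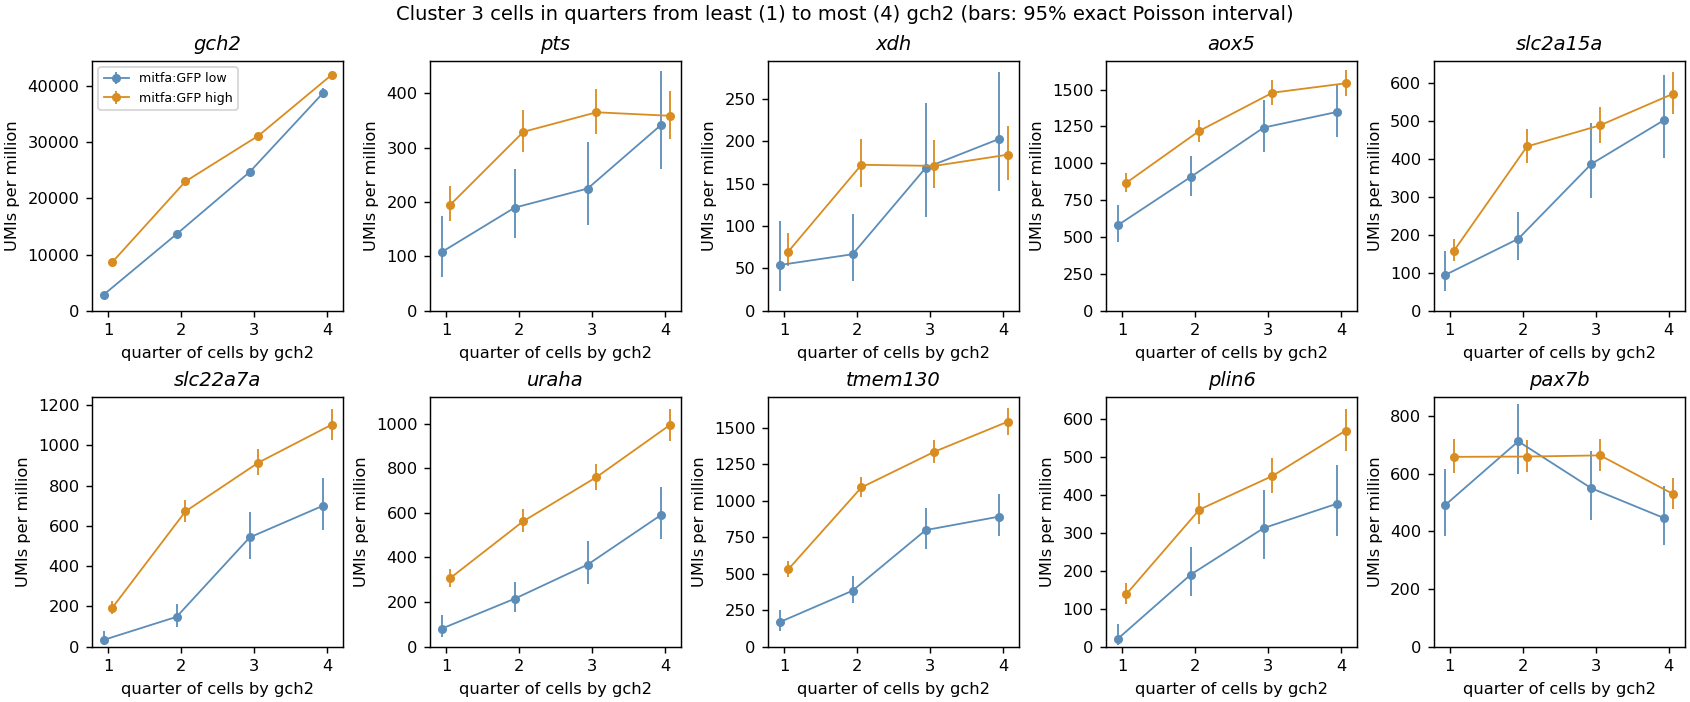
Levels (CPM, linear axis from 0) of the 9 genes and pax7b in the cluster 3 cells, split into 4 groups from least to most gch2, by library, with exact 95% Poisson bars. The 8 other genes end higher than they start, slc22a7a in the high library going from 193 to 1103, while pax7b in that library goes from 658 to 529.

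The genes were also compared cell by cell. Over the 288 high cluster 3 cells with at least 4000 UMIs, thinned to that depth, the Spearman correlation of gch2 was 0.56 with slc22a7a and 0.51 with tmem130, and over the 73 low cells it was 0.62 and 0.56. All 36 pairs of the 9 genes had a correlation above 0, with medians of 0.29 (low) and 0.28 (high). These are descriptions over cells of 1 library each, and pairs with other genes were not computed, so no background stands beside them. At the same depth slc22a7a had 2.87 UMIs per cell in the high library and was seen in 76.9% of cells, where an even spread over the cells would give 94.3%, and plin6 was seen in 61.5% against 77.8%. For xdh, at 0.588 UMIs per cell, the values were 41.3% and 44.4%, and at so low a level the measure can show little unevenness.

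When all cells were summed, 9 of 9 genes exceeded their low-library level in the high library by at least 2-fold, beside 6.62% of all genes, with ratios from 4.47-fold for aox5 to 8.12-fold for slc22a7a. These ratios contain the larger share of cluster 3 cells in the high library. Within cluster 3, 2 of 9 genes passed 2-fold, against 7.54% of all genes: slc22a7a, at 2.02-fold (log2 1.02, 0.82 to 1.21), and uraha, at 2.06-fold (log2 1.04, 0.84 to 1.25). Just below lay tmem130 at 1.998-fold (log2 1.00, 0.85 to 1.15). The other differences were smaller, with log2 values of 0.73 for plin6, 0.52 for pts, 0.49 for slc2a15a, 0.37 for gch2, 0.32 for aox5 and 0.29 for xdh, whose interval (-0.05 to 0.65) included 0. All 9 point the same way, from 1 library a side. No share of all genes by direction stands beside this count, and the median over all genes was log2 -0.03.

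In cluster 6, 4 of the 9 genes had enough UMIs and 0 of them passed 2-fold between the libraries, against 8.75% of all genes, and gch2 gave a log2 ratio of 0.74 (0.50 to 1.00). In cluster 1, 3 of 5 with enough UMIs did, against 6.80%: gch2 at 3.77-fold, pts at 2.74-fold and uraha at 6.03-fold, the last from 30 and 4 UMIs. These ratios contain the larger share of cells with 10 or more melanin UMIs in cluster 1 of the high library. Within that class gch2 was at 313 CPM in the low and 315 CPM in the high library. Without the cells that showed at least 4 other genes, these values were 196 and 307 CPM. With all cells, gch2 was at 67.2 and 127 CPM in the class with 1 to 9 and at 13.7 and 62.6 CPM in the class with 0. In the non-pigment clusters 4 of 5 with enough UMIs did (gch2, aox5, slc22a7a and tmem130), against 1.38% of all genes, with gch2 10.7-fold and tmem130 8.95-fold higher in the high library. Of slc22a7a there were 20 high and 2 low UMIs, and of tmem130 55 and 8. Both reached the minimum through the high library, so their place in this count depends on the side where they are high. Below the minimum, the high and low levels were 2.10 and 0.190 CPM for slc2a15a, 1.61 and 0.285 CPM for pts, and 1.73 and 0.285 CPM for plin6. There, uraha differed by a log2 ratio of 0.55 (-0.09 to 1.19).

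Other genes of the same pathways were read from 7 lists. The share of all genes at least 2-fold above the non-pigment clusters in cluster 3, to be read beside each list count, was 15.0% (low) and 16.6% (high). Of 13 measured genes around the pterin cofactor, 8 had enough UMIs, and 5 of them were at least 2-fold above the non-pigment clusters in cluster 3 of each library, with 1 (spra) lower in the low library. The list medians were log2 2.79 (low) and 3.14 (high), beside medians over all genes of -0.12 and -0.45. In cluster 6, 4 of 7 (low) and 5 of 7 (high) were at least 2-fold higher, beside 17.7% and 18.6% of all genes. In cluster 1 this held for 3 of 7 in each library, beside 10.3% and 15.1%. The cofactor enzymes pcbd1 and qdpra, which regenerate tetrahydrobiopterin, and pah, which uses it to hydroxylate phenylalanine, were above the background in cluster 3, and higher still in cluster 6. In the high library qdpra was at 958 CPM in cluster 3 and 1951 CPM in cluster 6, pcbd1 at 703 and 1056 CPM, and pah at 352 and 659 CPM. The paralogue of gch2, gch1, was at 5.91 CPM in low and 13.7 CPM in high cluster 3 cells.

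The 2 genes for sepiapterin reductase divided between the pigment clusters, a pair singled out after its values were seen. The level of sprb was 39.9 CPM in low and 54.5 CPM in high cluster 3 cells, and 0 UMIs were seen in the 22 low and 197 high cells of cluster 6. In the high library this made cluster 3 at least 39.3-fold higher, with the floor of 3 UMIs per library for cluster 6. The reverse held for spra, which cluster 6 held at 42.2 CPM (low) and 29.6 CPM (high) and cluster 3 at 2.95 and 3.12 CPM. The log2 ratio of spra in cluster 3 to cluster 6 was -3.25 (-4.38 to -2.28) in the high library and -3.84 (-7.07 to -1.60), from 12 UMIs, in the low library. Cluster 1 had 0 and 1 UMIs of sprb, and its spra level, 7.01 and 7.84 CPM, was close to the 7.49 and 6.17 CPM of the non-pigment clusters.

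The genes for the molybdenum cofactor, which xanthine dehydrogenase and the aldehyde oxidases need, were also high in cluster 3. Of 5 measured genes, 3 (low library) and 4 (high library) were at least 2-fold above the non-pigment clusters (medians log2 4.55 and 4.03), and gphnb, with 1 UMI in cluster 3, was lower in the high library. Of these, mocs3 was 2.24-fold higher in the high library (log2 1.17, 0.31 to 2.01), and its low log2 ratio was -0.53 (-3.62 to 1.41). The excess was not confined to cluster 3. In cluster 6, 3 of 4 genes of each library were at least 2-fold higher, beside 17.7% (low) and 18.6% (high) of all genes. In cluster 1 this held for 3 of 4 (low) and 3 of 5 (high), beside 10.3% and 15.1%. The gene gphnb was at least 2-fold lower in cluster 1 of both libraries and in cluster 6 of the high library. The first enzyme, mocs1, was at 88.6 CPM in low and 86.3 CPM in high cluster 3 cells and at 4.22 and 1.85 CPM in cluster 6, and mocs2 was at 452 and 429 CPM in cluster 3. The gephyrin gene gphna was at 78.5 CPM in cluster 3 and 88.9 CPM in cluster 6 of the high library, and the interval of their log2 ratio (-0.46 to 0.10) included 0.

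Of 10 genes of urate and purine breakdown, 3 had enough UMIs and 2 of them were higher in cluster 3 in each library (medians log2 2.88 and 2.95). The purine nucleoside phosphorylase gene pnp4a, known from iridophores, was at 262 CPM in cluster 3 and 646 CPM in cluster 6 of the high library. Its relative pnp5a was at 117 and 25.9 CPM, and pnp5b was at 17.5 CPM in cluster 3 against 26.4 CPM in the non-pigment clusters. The urate oxidase gene uox and the paralogue of uraha, urahb, had 0 UMIs in cluster 3 of both libraries, where the floor was 4.43 CPM in the low and 0.935 CPM in the high library.

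Among 9 carotenoid and lipid droplet genes, 2 of 3 (low library) and 4 of 4 (high library) were at least 2-fold above the non-pigment clusters (medians log2 1.87 and 3.26). The carotene oxygenase gene bco1 led them, at 91.6 and 159 CPM in cluster 3 against 1.90 and 1.61 CPM in the non-pigment clusters. The scavenger receptor gene scarb1, which takes up carotenoids, was at 17.7 and 26.8 CPM, and plin2 at 5.91 and 18.7 CPM.

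Of 7 close relatives of the transporters, slc2a11b and slc2a15b had enough UMIs, and both were above the background in both libraries (medians log2 8.75 and 6.92). The paralogue pair slc2a15a and slc2a15b parted in cluster 6. Of slc2a15a the high library held 1 UMI there, and slc2a15b stood at 71.7 CPM in low and 89.9 CPM in high cells and was seen in 59.1% and 61.4% of them. The excess of cluster 3 over cluster 6 was 3.69-fold for slc2a15b in the high library. In cluster 3 slc2a11b was at 1430 and 1630 CPM, and in cluster 6 at 135 and 183 CPM.

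Of 10 regulators and receptors, 7 of 8 (low library) and 8 of 9 (high library) were at least 2-fold above the non-pigment clusters (medians log2 5.64 and 5.37), and pax3a was lower in both. The xanthophore receptor gene csf1ra was at 35.4 and 34.6 CPM in cluster 3, and tfec at 76.8 and 79.8 CPM. The genes pax7a and pax7b were at 648 and 557 CPM in low and at 770 and 630 CPM in high cluster 3 cells, and each at 2.32 CPM, from 5 UMIs, in high cells of cluster 6. The level of mitfa was 406 and 668 CPM in cluster 3 and 1699 and 1567 CPM in cluster 6. Between the libraries 0 of the 9 with enough UMIs passed 2-fold in cluster 3, beside 7.54% of all genes.

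Of 10 melanin genes, 3 of 7 (low library) and 4 of 9 (high library) were at least 2-fold above the non-pigment clusters in cluster 3, and 3 were lower in the low library (medians log2 -0.17 and 0.99). Those furthest above it in the high library were tyr, at 26.6 and 46.1 CPM, slc45a2, at 242 and 297 CPM, and pmela, at 48.7 and 222 CPM. In cluster 6 the same genes were at 236 and 230, 1686 and 1893, and 2883 and 3299 CPM. Their non-pigment level in the low library was uneven. It was highest in cluster 5, which carried 8 of 8 retinal markers, at 3.32, 59.7 and 139 CPM, and the lowest cluster had 0, 0.574 and 0 CPM.

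**Figure D5:**
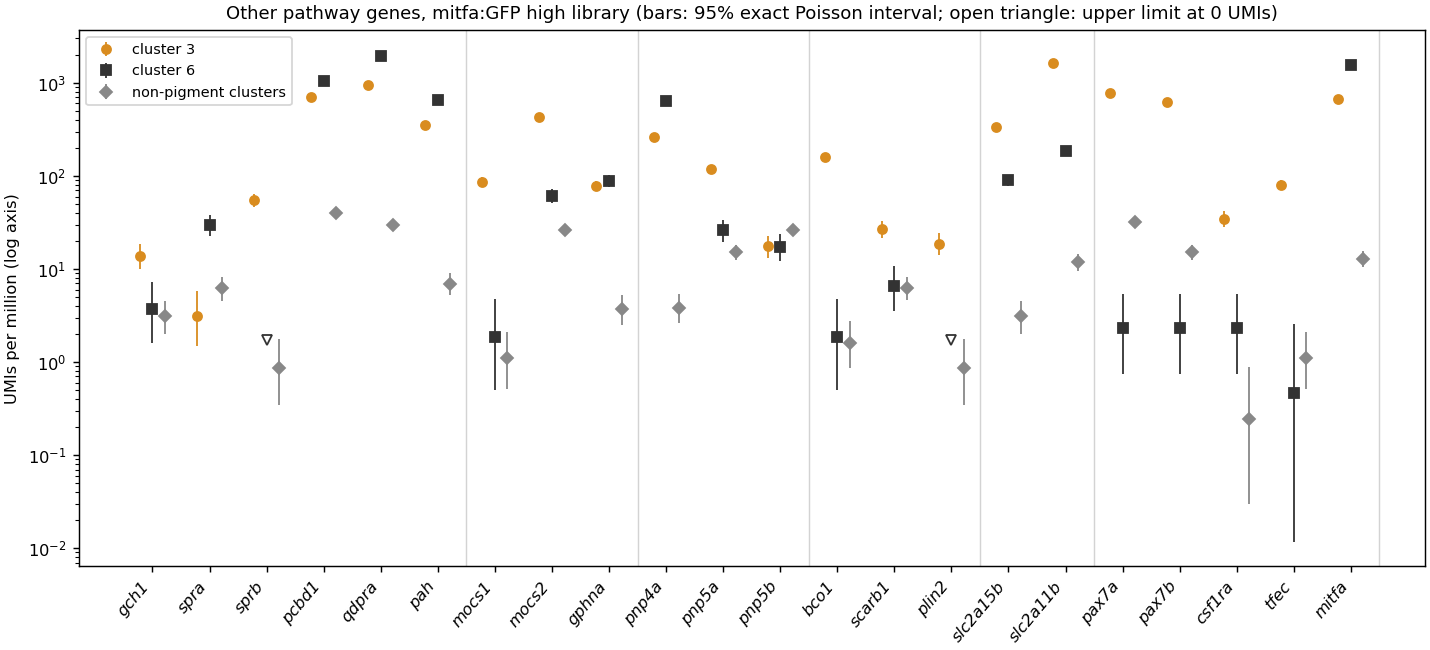
Levels (CPM, log axis) of genes from 6 of the 7 further lists in cluster 3, cluster 6 and the non-pigment clusters of the high library, with exact 95% Poisson bars and open triangles for upper limits at 0 UMIs. The 2 sepiapterin reductase genes change places between clusters 3 and 6, sprb at 54.5 and 0 and spra at 3.12 and 29.6, and qdpra, pcbd1 and pah lie higher in cluster 6.

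The genes most like each of the 9 were sought over the 18 sums of a cluster and a library with at least 20 cells, by Pearson correlation of log2(CPM + 10) among 8231 genes. These sums share 2 libraries and most of the likeness rests on cluster 3. Nearest to gch2 was CABZ01021592.1 (r = 0.946), at 13225 CPM in low and 24255 CPM in high cluster 3 cells, then slc2a11b (0.922) and prdx1 (0.917). Nearest to pts were slc2a11b (0.987), slc2a15b (0.986) and cax1 (0.982), all of them also present in cluster 6, where cax1 was at 57.0 CPM in the high library. Nearest to aox5 were prdx1 (0.978), mocs1 (0.975) and impdh1b (0.967), the last a gene of GTP synthesis, at 5153 and 5151 CPM in cluster 3.

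Members of the set were themselves among the nearest genes of xdh, slc2a15a, slc22a7a, tmem130 and plin6. The melanophilin gene mlphb was nearest to xdh (0.999) and slc2a15a (0.998) and second for plin6 (0.997). The gene slc2a15a was among the nearest of xdh (0.997) and plin6 (0.998), and both were among its own nearest. In turn plin6 was among the nearest of xdh (0.995) and slc22a7a (0.995), which were not among its own nearest. The agouti gene asip2b was also near plin6 (0.996). Nearest to slc22a7a were zgc:113142 (0.995) and sprb (0.995), and nearest to tmem130 were slc22a7a (0.993), zgc:113142 (0.987) and si:dkey-251i10.2 (0.986). Nearest to uraha were pon1 (0.967), cx30.3 (0.965) and cryl1 (0.945). With a pseudocount of 1 CPM in place of 10, between 1 and 3 of the 3 names were kept for each gene.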

How the data were processed

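The 2 libraries were made with droplet 3′ chemistry, and per the submitters' processing notes Cell Ranger 6.1.2 and GRCz11 were used. The authors deposited whole-number UMI counts per gene and barcode for each library, an aggregated matrix of counts, and a cell table with Seurat clusters and the sorted fraction. The aggregated matrix kept 86.6% of the UMIs of the high library and 100% of those of the low library, so the matrices of the single libraries were used. The 310 low and 231 high barcodes that are not in the cell table were left out. No doublets were removed: the automatic threshold of Scrublet marked 5 and 6 barcodes, too few to be usable.

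UMIs were summed over the cells of a cluster and library and scaled to 1000000. Intervals were exact at 95% (Poisson for levels, conditional binomial for ratios, Clopper-Pearson for shares). A ratio was counted as past 2-fold only where both sides together had at least 20 UMIs, and a side at 0 was set to 3 UMIs. Thinning drew 20 times and the median was kept. The design allowed no test, and edgeR 4.0.16 and DESeq2 1.42.0 supplied only alternative scaling factors. Python 3.11.15, numpy 2.4.6, pandas 2.3.3, scipy 1.17.1, scanpy 1.11.5, matplotlib 3.10.9 and R 4.3.3 were used, and the scripts were tested on simulated data. Alternatives changed the scaling, the total, the thresholds, the thinning depth, the background, the weighting of cells, the doublets, the matrix and the pseudocount, and single cells were left out as alternatives chosen after the data were seen.

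The 9 genes, the 7 lists and the markers were chosen with earlier results of these data known. From each list the text names up to 3 genes with the highest ratio of cluster 3 to the non-pigment clusters in the high library, plus gch1, pax7a, pax7b, csf1ra and mitfa. The genes spra, pcbd1, gphnb, mocs3, pax3a, sox10, uox and urahb were named after their values were seen. Listed symbols with no row in the files were not analysed here, nor were sequences and coordinates.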

Additional observations from a re-analysis of the deposited data

Results flagged for a closer look

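Barcodes absent from the cell table of the authors, which no comparison above uses, held several of the 9 genes together more often than the kept non-pigment cells did. At least 3 of the 9 genes occurred in 7 of 310 left-out low barcodes (2.26%, 0.913 to 4.6) and in 45 of 231 left-out high barcodes (19.5%, 14.6 to 25.2). Among kept non-pigment cells this was 0 of 1862 in the low library and 17 of 1418 (1.20%, 0.700 to 1.91) in the high library. The kept non-pigment cells leave out cluster 3 by choice, where 75 of 78 low and 318 of 324 high cells met this. The left-out barcodes have no cluster and may hold cells of every kind, so the 2 sets are unlike. Cluster 3 alone made up 3.30% of the kept low cells and 13.6% of the kept high cells. Some cells of clusters 1 and 6 met this too. The share over all kept cells was not computed, so no excess over them is shown. The left-out barcodes were shallow, with medians of 945 and 1160 UMIs, and mitochondrial genes took 5% or more of the UMIs in 288 of the low and 220 of the high ones, including 6 of the 7 and 43 of the 45 barcodes counted here.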

How the results depend on the processing

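No paired analysis was possible because each sorted fraction was 1 library and no result came from a test. Of 107 counts of genes past 2-fold under the alternatives, 102 stayed within 1.5 times the reported count, and of 650 log2 ratios 585 stayed within the counting interval of the reported ratio. Of 236 shares, likenesses and levels 121 stayed within their counting interval or kept at least 2 of 3 names, and most of those that moved were shares of cells at another thinning depth. Genes past 2-fold between the libraries numbered 1 in cluster 6 with TMM scaling (0 reported). In cluster 3 they numbered 1 without mitochondrial and ribosomal protein genes in the total, and 0 at 4-fold (2 reported), and in cluster 1 they numbered 1 at 4-fold (3 reported). With a minimum of 50 UMIs, 1 gene in place of 3 was higher in cluster 6 than in the non-pigment clusters of the low library. The log2 ratio of uraha in cluster 1 to the non-pigment clusters of the low library changed from -1.67 to 2.09 against the median over the single clusters.

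The share of cluster 3 cells with at least 3 of the 9 genes moved with depth, as thinning by its construction leaves fewer UMIs. It was 61.0% (low) and 83.5% (high) at 1000 UMIs, 91.8% and 97.9% at 4000 UMIs, and 96.2% and 98.1% without thinning. At 2000 UMIs, at least 2 genes were seen in 93.4% and 98.4% of these cells and at least 5 in 47.4% and 72.7%. The low library had 22 cells in cluster 6, and 5 of the 9 genes had 0 UMIs there.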
